A study of Mus musculus with 24 samples.

Results

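Genes known from fat cell formation and fatty acid handling were followed across embryonic mouse jaws. The 8 genes were Pparg, Cebpa, Cebpb, Ebf2, Lpl, Cd36, Fabp4 and Fabp5, out of 18193 genes that the array names singly. They were chosen because Pparg was higher and Fabp4 lower in mutants than in controls in these same arrays, so their mutant against control differences are given as a description and with no test. Their 18 probe sets were found by gene symbol, and the brightest of them on average stands for each gene. All 8 passed the filter on dim genes, which asked that a gene exceed the median of the array in 3 or more of 24 arrays. All 12811 genes that passed it were tested. Pparg passed only through the mutants, since 0 of 12 control and 8 of 12 mutant arrays were above the median.

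The samples were jaws of C57B6 embryos at embryonic day 14.5, from crosses of Wnt1cre;Tgfbr2fl/+ with Tgfbr2fl/fl mice. Wnt1-Cre acts in neural crest cells, which give rise to most of the bone and connective tissue of the face, whereas vessels, blood cells and muscle fibres of the jaw come mainly from other cells and keep the receptor. Mutants were picked out by a cleft palate and a skull vault defect, and controls were their littermates, whose own alleles are not given. Upper jaw (maxilla) and lower jaw (mandible) were each cut into a distal and a proximal piece, so that genotype, jaw and end give 8 groups of 3 arrays. Whether an array holds 1 embryo or several, and whether the arrays of a group come from separate litters, is not given, so the p-values measure the spread between these arrays.

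The signals are log2 values, in which a difference of 1 is a factor of 2, and the array medians lay between 6.93 and 7.0. Signals near or below that median carry much background, so that differences of dim genes are understated. Tgfbr2 itself read 11.52 to 12.56 and was higher in mutants by 0.31 to 0.78. The position of its probe set relative to the deleted part is not given, so it does not check the genotype. The labels call the pieces bone, yet Krt5 of skin epidermis and Myog of muscle were above the array median in all 24 arrays. Mutant distal maxilla array 1 and mutant proximal maxilla arrays 1 and 2 stood apart. Their mean over a skeletal muscle marker list, centred on all arrays, was 1.09, 1.78 and 0.92, against -2.27 to -0.74 in the 6 control maxilla arrays. Their mean over an olfactory and nasal list was -0.22, -1.04 and -0.73, against 0.11 to 2.79 in those controls. Over a cartilage list it was -2.58, -2.55 and -2.78, against -0.13 to 1.72. Values of the maxilla are therefore given with and without these 3 arrays where they matter. This leaves mutant array 3 alone in the proximal maxilla, and that array also differed from its controls in tissue content. It read -0.13 on the muscle list, against -1.82 to -0.74 in control proximal maxillae, and 0.73 on a skin epidermis list, against -2.19 to -0.04. Its nasal value was 2.07 against 2.67 to 2.79, and its cartilage value, 0.80, lay within the control range of 0.23 to 1.72. Uneven tissue content was not confined to the maxilla. On the cartilage list mutant distal mandible arrays 1 and 3 read -2.19 and -1.93, against 0.35 in array 2 and -0.24 to 1.05 in the controls. In whole tissue, fewer cells of a type and less RNA per cell cannot be told apart.

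In a precursor of the fat lineage, C/EBP beta (Cebpb) is induced early, and PPAR gamma (Pparg), a nuclear receptor that binds fatty acids and pairs with RXR, then acts together with C/EBP alpha (Cebpa) to switch on genes of lipid uptake and storage. Ebf2 marks committed precursors, in particular of brown and beige fat. Lipoprotein lipase (Lpl) frees fatty acids from circulating lipoproteins at the capillary wall, Cd36 takes them up, and the fatty acid binding proteins Fabp4 and Fabp5 carry them inside the cell. None of these genes belongs to fat cells alone. Fabp4 and Cd36 are also made by capillary endothelium and macrophages, Lpl by muscle, and Fabp5 by epidermis.

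Most genes of mature fat cells were at background in these jaws. Of 10 genes listed for mature fat cells, 8 had a singly named probe set, and 5 of them (Adipoq, Cidec, Lep, Gpd1 and Pck1) were above the array median in 0 of 24 arrays. Adipoq, the fat cell hormone adiponectin, read 4.14 to 5.57. Lipe and Slc2a4, which muscle and other tissues also express, were above the median in all 24 arrays, and Retn, the hormone resistin, in 5.

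Pparg has 3 start sites in the RefSeq promoter table (GRCm38.p6), and 1 probe set reads the gene, so the array does not tell these starts apart. The 250 bases before the first and the third start are shown because letters known from the binding sites of the gene family's own partners lie in them, and those before Cd36 because it is a known target of PPAR gamma. Capitals mark AGGTCA on either strand, the half-site that nuclear receptors bind, in the first Pparg start and in Cd36, and TTNNGCAA on either strand, a C/EBP motif, in the third Pparg start. The windows lie at chr6:115360894-115361143 (plus strand), chr6:115421816-115422065 (plus strand) and chr5:17835897-17836146 (minus strand), and each sequence runs 5′ to 3′ toward the start.
Pparg start 1: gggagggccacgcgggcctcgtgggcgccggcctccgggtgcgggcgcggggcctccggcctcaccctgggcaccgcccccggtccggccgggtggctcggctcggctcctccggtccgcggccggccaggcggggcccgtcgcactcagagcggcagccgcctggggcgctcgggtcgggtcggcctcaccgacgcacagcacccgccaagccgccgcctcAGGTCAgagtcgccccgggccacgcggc
Pparg start 3: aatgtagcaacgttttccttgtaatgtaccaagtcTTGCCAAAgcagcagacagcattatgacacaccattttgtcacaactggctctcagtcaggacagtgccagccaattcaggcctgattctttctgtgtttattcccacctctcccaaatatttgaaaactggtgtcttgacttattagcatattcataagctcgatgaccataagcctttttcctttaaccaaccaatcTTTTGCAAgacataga
Cd36: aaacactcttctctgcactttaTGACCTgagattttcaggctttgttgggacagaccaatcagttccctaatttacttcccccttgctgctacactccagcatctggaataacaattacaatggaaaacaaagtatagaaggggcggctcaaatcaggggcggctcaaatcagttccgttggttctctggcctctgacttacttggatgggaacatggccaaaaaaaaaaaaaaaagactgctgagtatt

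In windows from 250 bases before to 50 bases after a start, the third Pparg start held 2 C/EBP matches, whose first bases lie at -215 on the minus strand and at -16 on the plus strand. At least 1 such match was found in 10.8% of all 32851 windows of this length. The first and second Pparg starts and Cd36 held 1 half-site each, at -28, -9 and -228, and 16.3% of all windows held one. The full direct repeat AGGTCANAGGTCA was in none of the 6 windows of Pparg, Cebpa, Cebpb and Cd36 and in 0.0396% of all. These matches are letters in a window and were not measured as bound.

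Pparg was the member whose genotypes did not overlap, on the same side, in all regions. In the control distal maxilla its signal was 6.35, 6.31 and 6.55, and in the mutant 7.26, 7.41 and 6.56. In the proximal maxilla the controls read 5.79, 5.98 and 5.69 and the mutants 7.44, 7.80 and 7.04. In each end of the upper jaw all 3 mutant arrays were above all 3 controls, by the narrowest margin in the distal end. The control distal mandible read 5.90, 5.79 and 5.60, and the mutant 7.19, 6.49 and 7.35. The control proximal mandible read 6.22, 6.04 and 6.09, and the mutant 6.54, 6.97 and 6.85. The groups did not overlap in the lower jaw either, and all 12 control arrays were below their array's median whereas 8 of 12 mutant arrays were above it. As differences of means with their standard error (n = 3 against 3), mutant Pparg was higher by 0.67 ± 0.22, 1.61 ± 0.22, 1.25 ± 0.22 and 0.67 ± 0.22 in the distal maxilla, proximal maxilla, distal mandible and proximal mandible. These are factors of 1.59, 3.04, 2.37 and 1.59 on the scale of the signal. Without the 3 maxilla arrays that stood apart, the maxilla values were 0.58 and 1.22, the proximal one from mutant array 3 alone. Of all genes tested, 0.461% had mutant arrays above control arrays in all 4 regions, a count that the choice of Pparg already used. Over all 24 arrays Pearson's r of Pparg was -0.62 with the cartilage list mean. It was 0.57 with an endothelial, 0.51 with a skin epidermis list and between -0.24 and 0.46 with the other lists. The mutant distal mandible read -2.19, 0.35 and -1.93 on the cartilage list. In the proximal mandible that list was 1.35 higher in mutants, where Pparg was also higher. The part of tissue content in the Pparg values was not tested.

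Fabp4 went the other way, and its largest differences lay in the lower jaw. The control proximal mandible read 9.38, 8.80 and 10.01, the highest Fabp4 signals of the series, and the mutant 5.50, 6.36 and 6.13. The control distal mandible read 8.70, 8.43 and 8.62, and the mutant 6.31, 4.93 and 6.29. All 6 mutant mandible arrays were below their array's median, where the control mandibles were all above it. Mutant Fabp4 differed by -3.40 ± 0.47 in the proximal and by -2.74 ± 0.47 in the distal mandible (SE, n = 3 against 3), lower by factors of 10.6 and 6.69. Since the mutant signals lie near background, these factors may understate the difference.

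In the maxilla the Fabp4 gap was narrower. The control proximal maxilla read 8.07, 8.28 and 7.78 against 7.24, 7.02 and 6.23 in the mutant, with no overlap. The control distal maxilla read 8.35, 6.43 and 8.20 against 7.29, 6.14 and 6.46, and there the groups overlapped because control array 2 was low. Mutant Fabp4 differed by -1.21 ± 0.47 in the proximal and by -1.03 ± 0.47 in the distal maxilla (SE, n = 3 against 3), and without control array 2 the distal value was -1.65. Without the 3 mutant maxilla arrays that stood apart, the values were -1.81 and -1.36, the proximal one from mutant array 3 alone. A second Fabp4 probe set above background gave -0.97, -1.11, -2.43 and -3.28 in the distal maxilla, proximal maxilla, distal mandible and proximal mandible, and the other 2 Fabp4 probe sets were above the array median in 0 of 24 arrays.

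**Figure D1:**
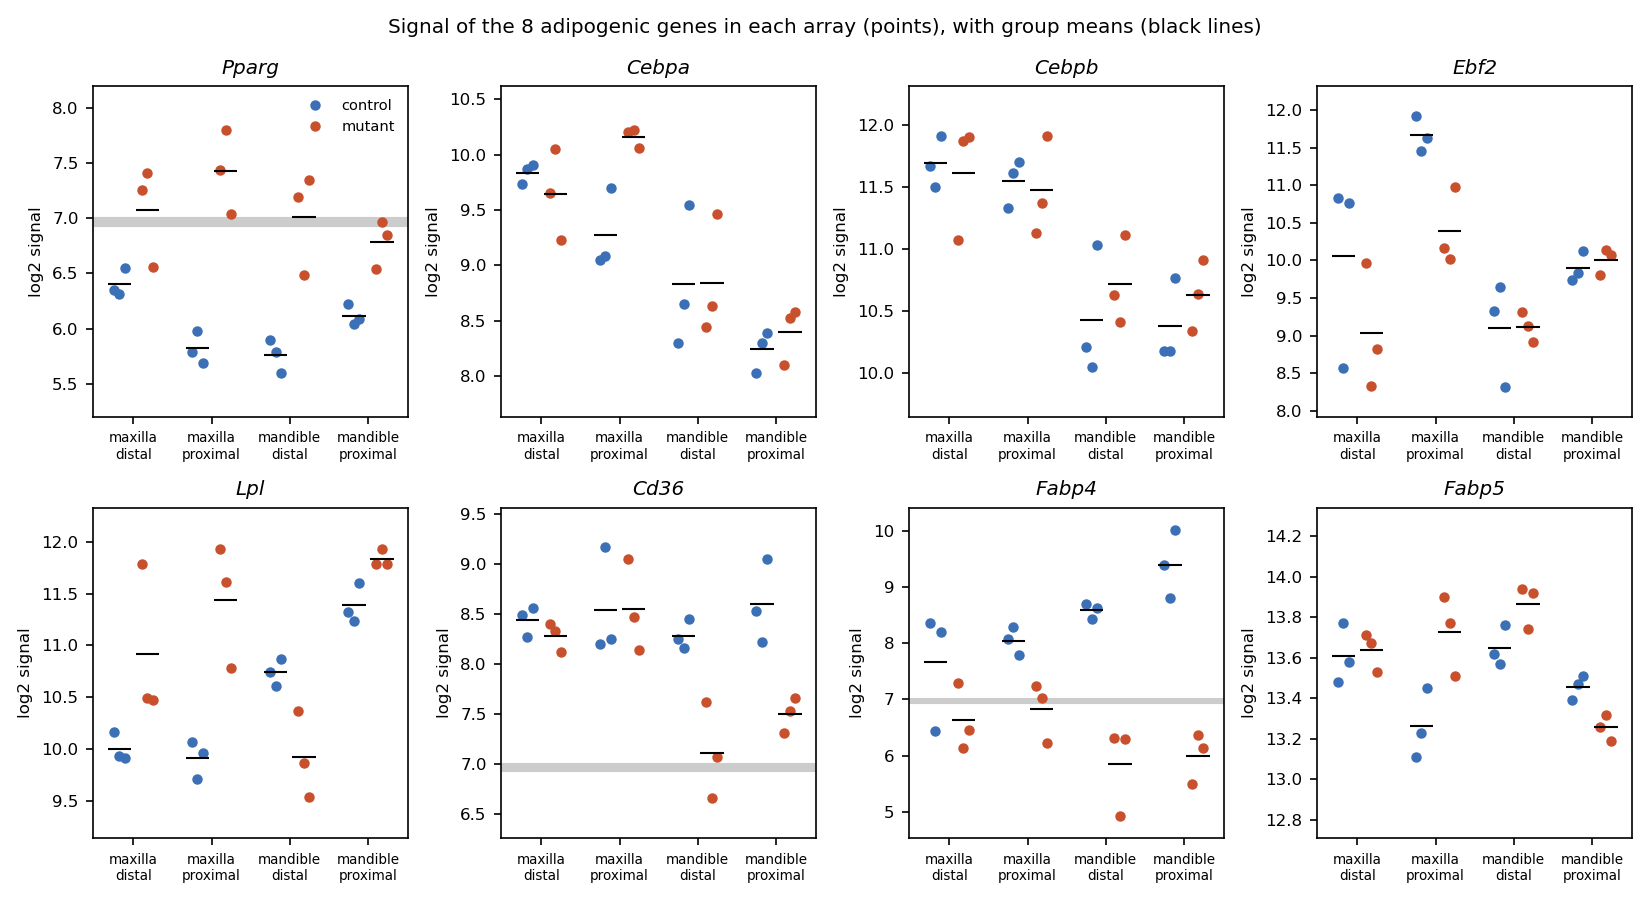
Signal (log2, vertical axis) of each of the 8 genes in every array, by jaw and end on the horizontal axis, with control arrays in blue, mutant arrays in orange, black lines at the mean of 3 arrays and a grey band at the range of array medians. Pparg of the 12 controls lies below the band, and Fabp4 of the 6 mutant mandible arrays lies below it while the 6 control mandible arrays lie above.

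Cd36, the fatty acid transporter, was separate between genotypes in the mandible and not in the maxilla. The control distal mandible read 8.25, 8.16 and 8.45 and the mutant 7.62, 6.66 and 7.07. The control proximal mandible read 8.53, 8.22 and 9.05 and the mutant 7.31, 7.53 and 7.66. Neither end overlapped between genotypes, and the mutant differed by -1.17 ± 0.27 and -1.10 ± 0.27 (SE, n = 3 against 3). In the maxilla the groups overlapped at both ends. Control distal maxillae read 8.49, 8.27 and 8.56 against 8.40, 8.33 and 8.12, and control proximal maxillae 8.20, 9.17 and 8.25 against 9.05, 8.47 and 8.14. The differences there were -0.15 ± 0.27 and 0.02 ± 0.27, or -0.21 and -0.39 without the 3 arrays that stood apart. The value of -0.39 rests on mutant proximal maxilla array 3 alone. A second Cd36 probe set gave -1.34 and -1.20 in the distal and proximal mandible, and the third was above the array median in 0 of 24 arrays. Whether the mandible differs from the maxilla in this respect was not tested, since the genotype contrast chose the genes.

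Lpl was separate between genotypes in all 4 regions, but not on the same side. In the distal mandible the controls read 10.74, 10.61 and 10.87 and the mutants 10.37, 9.87 and 9.54. In the proximal mandible the controls read 11.32, 11.24 and 11.60 and the mutants 11.79, 11.93 and 11.79. The mutant was thus the lower group at the distal end of the lower jaw, by -0.82 ± 0.30, and the higher group at its proximal end, by 0.45 ± 0.30 (SE, n = 3 against 3). In the distal maxilla the controls read 10.17, 9.93 and 9.91 and the mutants 11.79, 10.49 and 10.47. At the proximal end of the maxilla the controls read 10.07, 9.71 and 9.96 and the mutants 11.93, 11.61 and 10.78. The 3 highest mutant maxilla values belong to the 3 arrays with high muscle markers. The mutant was higher by 0.91 ± 0.30 and 1.53 ± 0.30 with all arrays, and by 0.47 and 0.87 without those 3. The value of 0.87 rests on mutant proximal maxilla array 3 alone. With the means of the nasal and muscle lists as covariates, the values were 0.55 and 0.39. The second Lpl probe set gave 1.03, 1.57, -0.76 and 0.56 in the distal maxilla, proximal maxilla, distal mandible and proximal mandible, with overlap in the last.

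Fabp5, the binding protein that epidermis makes in quantity, was the brightest and steadiest of the 8, at 13.11 to 13.94 in all arrays. The control proximal maxilla read 13.11, 13.23 and 13.45 and the mutant 13.90, 13.77 and 13.51, a difference of 0.47 ± 0.10 without overlap (SE, n = 3 against 3). The control proximal mandible read 13.39, 13.47 and 13.51 and the mutant 13.26, 13.32 and 13.19, a difference of -0.20 ± 0.10 without overlap the other way. At the distal ends the groups overlapped, with differences of 0.03 ± 0.10 in the maxilla and 0.21 ± 0.10 in the mandible. Beside the proximal maxilla value, the mean of 12 skin epidermis markers was 2.33 higher in the mutant, and its part in the Fabp5 difference was not tested. Without mutant arrays 1 and 2, which leaves array 3 alone, the proximal maxilla difference was 0.25, and with the covariates 0.12. The dimmer Fabp5 probe set gave 0.83 and -0.31 in the proximal maxilla and mandible, also without overlap. With all arrays, Fabp5 thus lay on the same side as its family member Fabp4 in the proximal mandible alone, at -0.20 beside -3.40. Only 2 protein-coding genes, Pmp2 and Fabp9, separate Fabp5 from Fabp4 on chromosome 3.

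Cebpb, the early factor, overlapped between genotypes in all 4 regions, with differences of -0.08, -0.08, 0.29 and 0.25, each ± 0.28 (SE, n = 3 against 3), in the distal maxilla, proximal maxilla, distal mandible and proximal mandible. Without the 3 maxilla arrays that stood apart, the maxilla values were 0.19 and 0.36, and with the covariates 0.21 and 0.66, on the other side of 0. The value of 0.36 rests on mutant proximal maxilla array 3 alone. The second Cebpb probe set gave 0.00, -0.09, 0.29 and 0.23. Cebpa, the later factor, was separate only in the proximal maxilla. There, controls read 9.05, 9.08 and 9.70 and the mutants 10.20, 10.22 and 10.06, a difference of 0.88 ± 0.29. Without mutant arrays 1 and 2, which leaves array 3 alone, it was 0.79. The skin epidermis list mean was 2.33 higher in the mutant there. Its Pearson's r with Cebpa over all 24 arrays was 0.70 (Spearman's rho 0.71), and its part in the Cebpa difference was not tested. In the other regions Cebpa differed by -0.19, 0.01 and 0.16, each ± 0.29.

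Ebf2 had lower mutant means in the maxilla. The control proximal maxilla read 11.92, 11.46 and 11.63 and the mutant 10.17, 10.02 and 10.98, with no overlap and a difference of -1.28 ± 0.49 (SE, n = 3 against 3). Without mutant arrays 1 and 2, which leaves array 3 alone, the difference was -0.69. The other 2 Ebf2 probe sets gave -1.37 and -1.51 there. The control distal maxilla read 10.83, 8.57 and 10.76 and the mutant 9.96, 8.33 and 8.82, where control array 2 was low for Ebf2 as it was for Fabp4. In the mandible the difference was 0.02 ± 0.49 at the distal and 0.11 ± 0.49 at the proximal end. Control distal maxilla array 2 was also low on the nasal list, at 0.11 beside 2.11 and 1.91. Between mutant and control the nasal list mean differed by -1.07 in the distal and -2.64 in the proximal maxilla. Over all 24 arrays Pearson's r between Ebf2 and that mean was 0.67 (Spearman's rho 0.45). The part of nasal tissue in the Ebf2 genotype differences was not tested.

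Genotypes did not overlap for 2, 6, 4 and 5 of the 8 genes in the distal maxilla, proximal maxilla, distal mandible and proximal mandible, beside 11.6%, 36.2%, 22% and 24.2% of all genes. The genes were chosen on this contrast, so nothing is read from these counts. The median difference over the 8 genes was -0.11, 0.24, 0.01 and 0.14 in the distal maxilla, proximal maxilla, distal mandible and proximal mandible, beside -0.01, 0.01, 0.03 and -0.04 over all genes.

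**Figure D2:**
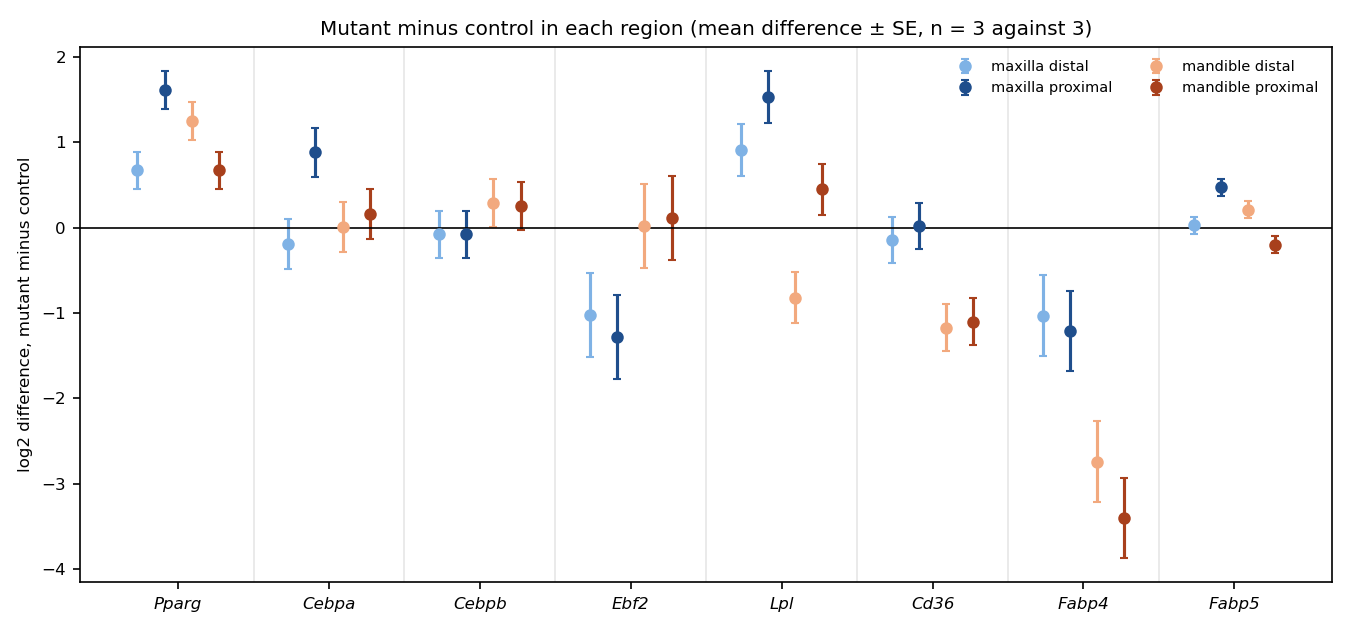
Mutant minus control difference (log2, vertical axis) for each gene on the horizontal axis, with 1 point per region and bars of 1 standard error (n = 3 against 3). Pparg lies above 0 in all 4 regions and Fabp4 below 0 in all 4, Cd36 is near 0 in the maxilla and near -1 in the mandible, and Lpl lies below 0 in the distal mandible only.

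Because Fabp4 and Cd36 are also endothelial genes, the mean of 15 endothelial markers was set beside them. This list differed between mutant and control by -0.05 in the distal and -0.01 in the proximal mandible, where Fabp4 differed by -2.74 and -3.40. Of the 15 markers, named here after their values were seen, Kdr fell in the distal mandible, and in the proximal mandible Kdr and Cldn5 fell and Eng rose (limma, adjusted p under 0.05). They differed by -0.44 (Kdr at either end), -0.60 (Cldn5, proximal) and 0.26 (Eng, proximal). The part of vessel content in the Fabp4 values was not tested. Pecam1 and Cdh5, defining markers of vessels, were above the array median in all 24 arrays, at 9.18 to 9.91 and at 10.2 to 11. Of the 15, 9 rose in the proximal maxilla, where 12.2% of all genes tested rose. The list mean was 0.39 higher there, on the opposite side from Fabp4. Its mutant arrays 1, 2 and 3 read 0.32, 0.22 and 0.03, against -0.25 to -0.12 in controls. The mean over 14 macrophage markers differed by 0.19, 0.85, -0.32 and -0.09 in the distal maxilla, proximal maxilla, distal mandible and proximal mandible. In the proximal maxilla 11 of the 13 macrophage markers tested rose, beside the same 12.2%. Mutant arrays 1, 2 and 3 read 0.94, 0.58 and 0.17 on that list there, against -0.30 to -0.26 in controls. Arrays 1 and 2, which stood apart, were thus the highest on both lists. Csf1r and Adgre1, which mark macrophages, were above the array median in all 24 arrays. The part of macrophage markers in the Fabp4 values was not tested.

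Within a genotype, Fabp4 did vary with these lists from array to array. Over the 12 mutant arrays Pearson's r between Fabp4 and the endothelial list mean was 0.72 (Spearman's rho 0.57), and over the 12 control arrays it was 0.57 (rho 0.74). With the macrophage list mean it was 0.83 (rho 0.66) in mutants and 0.74 (rho 0.68) in controls. Fabp4 and Cd36 correlated at 0.83 (rho 0.69) over the mutant arrays and at 0.42 (rho 0.21) over the controls, where leaving out the 2 arrays farthest in Fabp4 left 0.02. Pparg and Fabp4, which lay on opposite sides between genotypes, correlated at 0.72 (rho 0.61) within mutants and at -0.08 (rho 0.04) within controls. The 12 arrays of a genotype share 4 regions, so these values describe regions and arrays together and carry no test.

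Lpl varied with muscle markers and also with endothelial and macrophage markers. Over the 12 control arrays r between Lpl and the skeletal muscle list mean was 0.92 (rho 0.88), and over the 12 mutant arrays 0.59 (rho 0.60). With the endothelial list mean it was 0.73 (rho 0.73) in controls and 0.78 (rho 0.77) in mutants. Over all 24 arrays r was 0.79 with the endothelial, 0.73 with the macrophage and 0.70 with the muscle list mean. It was 0.61 with an osteoblast list mean and between -0.56 and 0.28 with the other lists. In the distal mandible, where Lpl was the lower in mutants, the muscle list was 1.23 lower, and in the proximal maxilla, where Lpl was the higher, it was 2.16 higher. In the proximal mandible the muscle list was 0.98 lower while Lpl was 0.45 higher, and in the distal maxilla it was 0.58 higher beside an Lpl difference of 0.91. With the covariates Lpl differed by 0.55, 0.39, -0.41 and 0.74 in the distal maxilla, proximal maxilla, distal mandible and proximal mandible, against 0.91, 1.53, -0.82 and 0.45 without them. The covariates enter the nasal and muscle lists together. In the proximal maxilla both lists differed between genotypes, by -2.64 and 2.16, so this fit cannot separate muscle content from genotype. The part of muscle, vessels, macrophages and osteoblasts in the Lpl values was not tested.

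**Figure D3:**
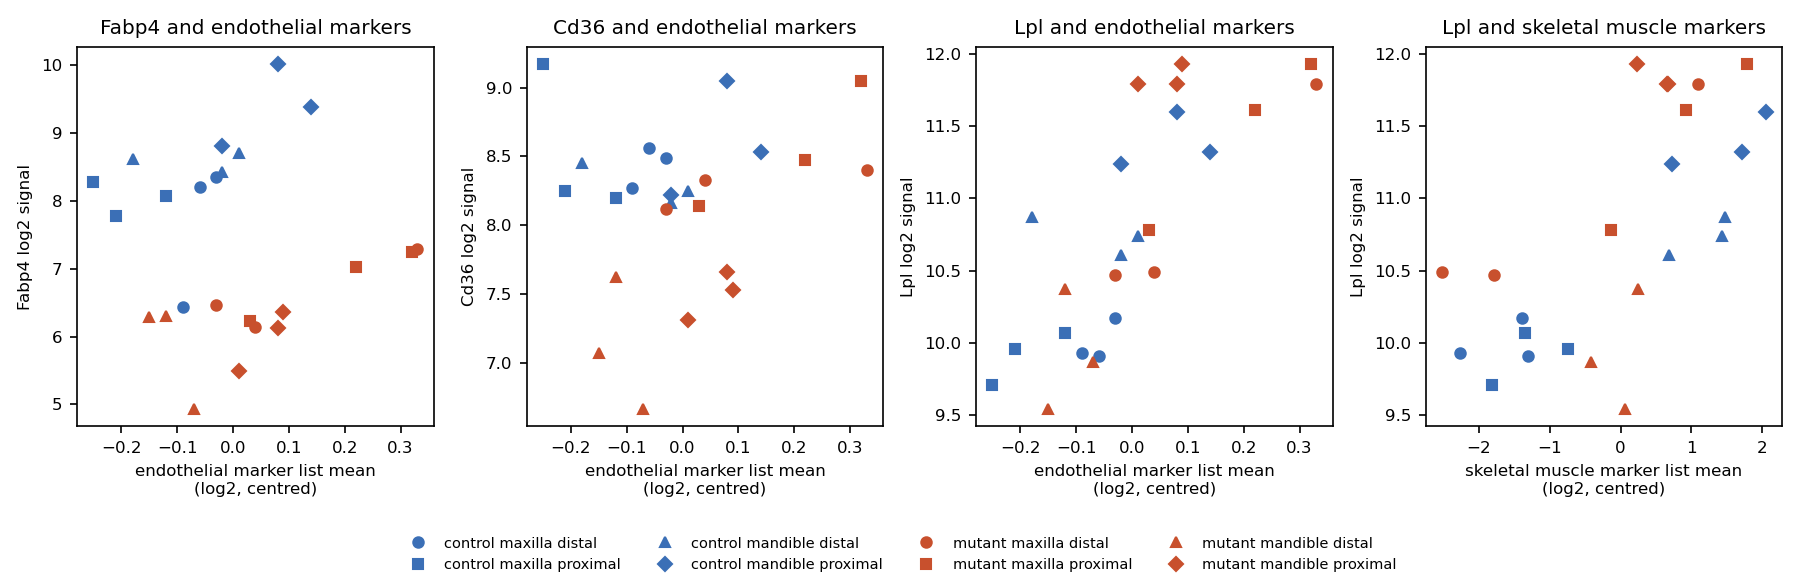
Signal of Fabp4, Cd36 and Lpl (log2, vertical axes) in each of the 24 arrays against the mean of the endothelial markers or, on the right, of the skeletal muscle markers (log2, centred on all arrays), with controls in blue, mutants in orange and 1 symbol per jaw and end. Mutant mandible arrays (triangles and diamonds) have Fabp4 from 4.93 to 6.36 at endothelial means that overlap those of the control mandibles, where Fabp4 is 8.43 to 10.01.

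The genes whose pattern over all 24 arrays was most like that of the main members, by Pearson's r, were taken from the 12811 genes tested. Those most like Pparg were Sparcl1 (0.87), Cited2, Ldb2 and Sned1 (0.86 each) and Fgf11 (0.84). Those most like Fabp4 were Clec4a3 (0.88), Cldn5 (0.86), Gpr182 and Scx (0.85 each) and Ccr2 (0.83). Cldn5, also on the endothelial list, is a tight junction protein of vessels, Scx a transcription factor of tendon, and Ccr2 a receptor of monocytes. Those most like Lpl were Fyn (0.95) and Ddr2, Poglut3, Golm1 and Adam12 (0.92 each). The arrays fall into 8 groups, so a high r reflects a shared order of groups as much as of arrays.

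Within controls, the 8 genes could be tested between jaws and ends, although these control arrays also entered the contrast by which the genes were chosen. At the proximal end, 5 of the 8 genes differed between mandible and maxilla (limma, adjusted p under 0.05), 2 higher and 3 lower in the mandible, where 33.6% of all genes tested differed, 16.6% higher and 17% lower. Lpl was 1.48 ± 0.30 higher in the mandible (limma adjusted p = 0.000936) and Fabp4 1.36 ± 0.47 higher (limma adjusted p = 0.0338). Ebf2 differed by -1.77 ± 0.49 (limma adjusted p = 0.00887), Cebpb by -1.17 ± 0.28 (limma adjusted p = 0.00338) and Cebpa by -1.04 ± 0.29 (limma adjusted p = 0.00953). Pparg (0.30 ± 0.22, limma adjusted p = 0.337), Fabp5 (0.20 ± 0.10, limma adjusted p = 0.161) and Cd36 (0.06 ± 0.27, limma adjusted p = 0.886) did not pass. The Fabp4 call was lost without any one of control proximal maxilla arrays 1, 2 and 3 or control proximal mandible arrays 1 and 3 (limma adjusted p from 0.0504 to 0.148), and the Cebpa call was lost without control proximal maxilla array 3 (limma adjusted p = 0.0588).

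At the distal end, 2 of the 8 genes differed between the jaws, both lower in the mandible, against 8.81% of all genes in either direction and 5.73% lower. Cebpb differed by -1.27 ± 0.28 (limma adjusted p = 0.0107) and Cebpa by -1.0 ± 0.29 (limma adjusted p = 0.0389). Control distal maxillae read 11.67, 11.50 and 11.91 for Cebpb and control distal mandibles 10.21, 10.05 and 11.03, without overlap. The Cebpa call was lost without any one of control distal maxilla arrays 1, 2 and 3 or control distal mandible arrays 1 and 2, and the Cebpb call without control distal maxilla array 3 or control distal mandible array 1 (limma adjusted p = 0.0561 and 0.0545). A fit of only the 6 arrays also ended the Cebpa call (limma adjusted p = 0.103). Cebpa and Cebpb varied together, with r of 0.88 (rho 0.85) over the 12 controls and 0.76 (rho 0.78) over the 12 mutants. Pparg differed by -0.64 ± 0.22 (limma adjusted p = 0.0808) and did not pass, on signals that were below the array median in all 12 controls.

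Between the ends of the control maxilla, 2 of the 8 genes passed, against 8.42% of all genes. Fabp5 was 0.35 ± 0.10 higher at the distal end (limma adjusted p = 0.0443), and Ebf2 differed by -1.62 ± 0.49 (limma adjusted p = 0.0478), lower distally. Both calls were close to the threshold, and of 17 alternatives 8 ended the Fabp5 call and 9 the Ebf2 call. Among these were no filter on dim genes (limma adjusted p = 0.0544 for Fabp5 and 0.0565 for Ebf2), every probe set tested on its own and a fit of only the 6 arrays. Both were lost without control distal maxilla array 2, whose Ebf2 signal was 8.57 beside 10.83 and 10.76, or without control proximal maxilla arrays 1 or 2. Fabp5 alone was lost without control distal maxilla array 3 and Ebf2 alone without control proximal maxilla array 3. The skin epidermis list mean was 2.35 higher at the distal end of the control maxilla, where 12 of its 12 markers rose (limma, adjusted p under 0.05). Over all 24 arrays Pearson's r between Fabp5 and that mean was 0.84 (Spearman's rho 0.85). This list was not among the covariates, and its part in the Fabp5 difference was not tested. Between the ends of the control mandible 0 of the 8 genes passed in limma, against 5.78% of all genes. At an unadjusted p under 0.05 there was 1, Lpl, which differed by -0.65 with a 95% interval of -1.28 to -0.02 (limma adjusted p = 0.264).

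Jaws also differed in tissue content. The nasal list mean was 1.38 in distal and 2.74 in proximal control maxillae against -1.12 and -1.09 in the mandibles, and the muscle list mean -1.65 and -1.30 against 1.19 and 1.5. With both list means as covariates 0 of the 8 genes passed between jaws at either end or between the ends of the maxilla. Lpl at the proximal end, 1.48 higher in the mandible, was then at -0.06, Cebpb at -0.12, and Cebpa at -1.23. In controls neither list overlapped between the jaws, so jaw and tissue content cannot be told apart. The osteoblast list mean, not among the covariates, differed between control mandible and maxilla by 1.80 at the proximal and -0.28 at the distal end. Between the distal and proximal ends of the control mandible it differed by -1.34. Its part in the Lpl values was not tested.

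**Figure D4:**
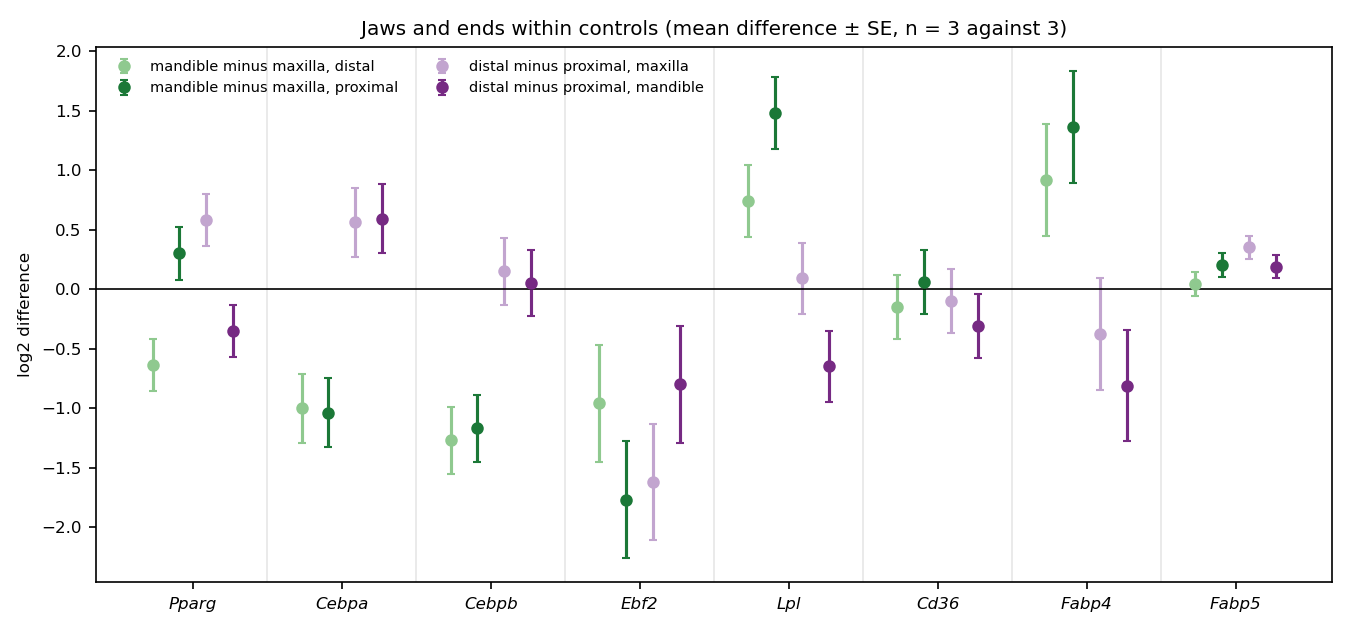
Differences within controls (log2, vertical axis) for each gene on the horizontal axis, mandible minus maxilla at each end and distal minus proximal in each jaw, with bars of 1 standard error (n = 3 against 3). Cebpa and Cebpb lie near or below -1 between the jaws at both ends, and Lpl and Fabp4 lie above 1 between the jaws at the proximal end.

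The order of the 8 groups differed from gene to gene. For Pparg the 4 control groups took the 4 lowest means, from 5.76 in the distal mandible to 6.40 in the distal maxilla, and the mutant groups followed from 6.79 to 7.42, with neighbouring mutant groups overlapping. For Fabp4 the 4 mutant groups took the 4 lowest means, from 5.84 ± 0.795 in the distal mandible to 6.83 ± 0.532 in the proximal maxilla (SD, n = 3), and each overlapped its neighbour. The 2 highest Fabp4 groups, control distal mandible at 8.59 ± 0.138 and control proximal mandible at 9.40 ± 0.604, were separate from one another and from the rest. The range over arrays was widest for Fabp4, 5.09, and narrowest for Fabp5, 0.83.

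Beyond the 8 genes, 101 other genes of adipogenesis and lipid handling were listed, 95 of them had a singly named probe set and 85 were tested in mutant against control. In the distal maxilla 1 of 85 passed (1.18%, against 0.195% of all genes tested in limma), in the distal mandible 1 (1.18% against 0.742%) and in the proximal mandible 3 (3.53% against 4.34%). The medians of the list were 0.03, 0.01 and -0.02, beside -0.01, 0.03 and -0.04 over all genes. The proximal maxilla had 15 rises and 7 falls, 25.9% of the list against 23.3% of all genes (12.2% higher and 11.1% lower), and the list median was 0.06 beside 0.01.

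Gpihbp1, the capillary protein that holds Lpl at the vessel wall, was the list's gene with calls in 3 regions. Its signal was 8.58 ± 0.111 in control and 9.21 ± 0.262 in mutant distal maxillae (SD, n = 3), a rise of 0.63 ± 0.11 (SE, limma adjusted p = 0.0176). It rose by 0.93 ± 0.11 in the proximal maxilla (limma adjusted p = 8.9e-05) and by 0.39 ± 0.11 in the proximal mandible (limma adjusted p = 0.0499). In the distal mandible the difference was 0.30 ± 0.11 and did not pass (limma adjusted p = 0.242), although the mutant arrays read 9.20, 8.95 and 9.04 and the controls 8.83, 8.68 and 8.77. Mutant arrays were above control arrays in all 4 regions, as they were for Pparg. Gpihbp1 is made by capillary endothelium, and in the proximal maxilla endothelial markers rose as well. In the proximal mandible, where the endothelial list differed by -0.01, the call was lost without any one of the 6 arrays (limma adjusted p from 0.0773 to 0.178) and in 10 of 17 alternatives. The distal maxilla call was lost without control array 3 (limma adjusted p = 0.0905) or mutant array 1 (limma adjusted p = 0.0727), without the 3 arrays that stood apart (limma adjusted p = 0.056) and in a fit of only the 6 arrays (limma adjusted p = 0.787).

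The other genes called in the lower jaw were few. Ebf1, a relative of Ebf2 that also acts in fat precursors, rose by 0.79 ± 0.15 in the distal mandible (limma adjusted p = 0.0154), and it is also on the nasal marker list. This call was lost without control distal mandible array 3 or mutant distal mandible arrays 1 or 3 (limma adjusted p from 0.0506 to 0.0825) and in a fit of only the 6 arrays (limma adjusted p = 0.111). Mogat2, which acylates monoacylglycerol, rose by 0.69 ± 0.11 in the proximal mandible (limma adjusted p = 0.00283) and stayed called under all 17 alternatives. Cav1, the caveolin of endothelium and fat cells, fell there by 0.54 ± 0.13 (limma adjusted p = 0.0259). That call was lost without control proximal mandible arrays 1 or 3 or mutant proximal mandible arrays 1 or 3 (limma adjusted p from 0.053 to 0.124).

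The listed genes that rose most in the proximal maxilla were Dlk1, an inhibitor made by fat precursors (1.42 ± 0.29), Egr2 (1.19 ± 0.21), Apoe (1.05 ± 0.27), Rxrg, a partner of PPAR gamma (1.01 ± 0.28), Gpihbp1 and Rbp4, the retinol carrier (0.82 ± 0.25). Those that fell most were Prdm16, a regulator of brown fat identity (-1.86 ± 0.50), Gata2, an inhibitor of adipogenesis (-1.43 ± 0.45), Cebpg (-0.97 ± 0.21), Lpin1, a phosphatidate phosphatase of triglyceride synthesis (-0.89 ± 0.16), Pnpla2, the triglyceride lipase of lipid droplets (-0.53 ± 0.14), and Slc27a3 (-0.46 ± 0.15). Only called genes whose mutant and control arrays did not overlap were named, and the limma adjusted p of these lay between 8.9e-05 and 0.0302. In 6 fits that each left out 1 of the compared arrays, the Gata2 and Slc27a3 calls stayed in 1, Rbp4 in 2 and Rxrg in 3. Prdm16 and Pnpla2 stayed called in 4, Apoe in 5, and Dlk1, Egr2, Gpihbp1, Cebpg and Lpin1 in all 6. By role, 4 of 22 transcription factors tested rose and 2 fell, 2 of 14 inhibitors and precursor genes rose and 1 fell, and 4 of 18 uptake and binding genes rose and 2 fell. Of 15 synthesis genes 1 fell, of 10 droplet and breakdown genes 3 rose and 1 fell, and of 6 adipocyte products 2 rose. Without mutant proximal maxilla arrays 1 and 2 (and distal array 1), 2 of the 85 genes were called there, and with the means of the nasal and muscle lists as covariates 1 was called. The first of these fits leaves 1 mutant proximal maxilla array, which is assumed to vary like the other groups. In it Dlk1 was at 1.16 (limma adjusted p = 0.0557), Egr2 at 0.85 (limma adjusted p = 0.0796) and Prdm16 at -1.02 (limma adjusted p = 0.281). Gpihbp1 stayed called in the proximal maxilla under all 17 alternatives. Leaving out mutant proximal maxilla array 1 alone left 10 calls, leaving out array 2 left 13, and leaving out array 3 gave 28.

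**Figure D5:**
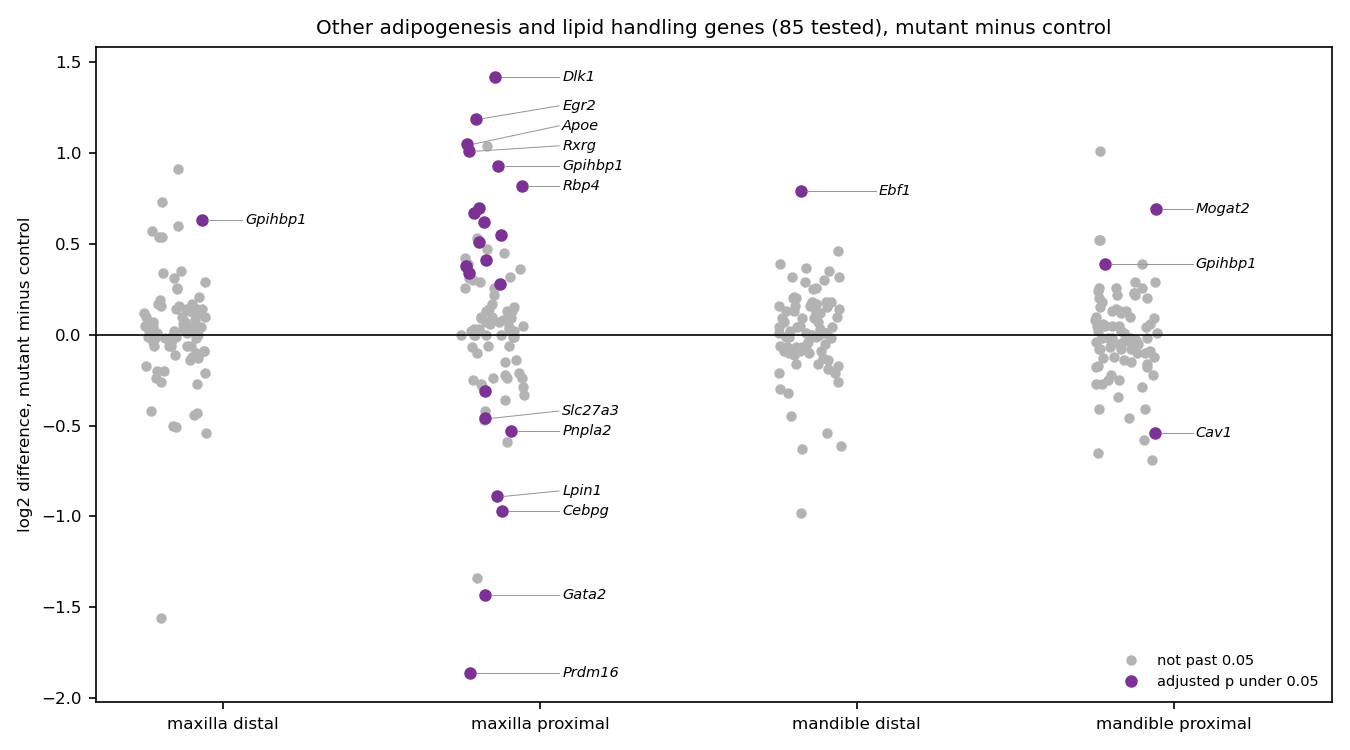
Mutant minus control difference (log2, vertical axis) of 85 other adipogenesis and lipid handling genes in each region (horizontal axis, points spread sideways for legibility), with genes past an adjusted p of 0.05 in purple and those named in the text labelled. The proximal maxilla holds 22 calls on both sides of 0, and the other regions hold 1 to 3.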

How the data were processed

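RNA of 24 jaw samples, extracted with RNeasy kits and labelled from 5 µg of total RNA, was hybridised to Affymetrix mouse arrays, per the labels' protocols. The deposited values are on a log2 scale, 1 per probe set and array, as their range of 3.44 to 14.8 shows. RMA and Partek 6.6 are named in the submitters' processing notes, while the sources used here give neither their settings nor a genome build. Of 45101 probe sets 34945 had 1 symbol in the platform table and were used. All 8 members matched the RefSeq table (GRCm38.p6). RMS differences between arrays of a group were 0.175 to 0.452, so no pair within a group was a duplicate. Such differences are not given for pairs across groups. The median standard error of a regional comparison was 0.106.

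All 24 arrays in 8 groups entered 1 limma 3.58.1 fit (R 4.3.3, lmFit and eBayes, two-sided), with Benjamini-Hochberg adjustment over 12811 genes and a threshold of 0.05. The fit was tested on simulated data. The members and all gene lists were chosen with earlier results of these data known. All 8 members are named. Of the lipid list, genes were named when called with arrays that did not overlap, up to 6 rises and 6 falls a comparison, and 5 genes most like Pparg, Fabp4 and Lpl by Pearson's r. Alternatives were other filters, probe set summaries, fits, weights, a second quantile normalization, a replicate block, list means as covariates and arrays left out.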

Additional observations from a re-analysis of the deposited data

Results flagged for a closer look

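Lpl differed between genotypes in opposite directions. All mutant arrays were above all controls in the distal maxilla (0.91), the proximal maxilla (1.53) and the proximal mandible (0.45), and below them in the distal mandible (-0.82). Fabp5 likewise was higher in the mutant proximal maxilla (0.47) and lower in the mutant proximal mandible (-0.20), with no overlap in either. These differences between regions were not tested, because the genotype contrast chose the genes.

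Within controls, Pparg of the mandible was below that of the maxilla at the distal end (-0.64) and above it at the proximal end (0.30), again without overlap at either end. The test of that difference, the jaw by end interaction, gave -0.93 ± 0.32 with a limma adjusted p of 0.111, where 4.01% of all genes passed, and it was added after the values were seen. Pparg was below the array median in all 12 control arrays, so these values lie near background.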

How the results depend on the processing

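Counts of the 8 genes called between jaws or ends of controls were recomputed under each alternative. Between the ends of the maxilla (2 in the report) the count was 0 with no filter, with every probe set tested on its own, with only the 6 arrays compared and with covariates (the means of the nasal and muscle lists), and 1 with a variance trend and robust fit. Between the jaws it was 5 with array weights and 0 with covariates at the distal end (2 in the report), and 0 with covariates at the proximal end (5 in the report). Between the ends of the mandible (0 in the report) it was 1 with only 6 arrays, with array weights, with covariates and without the 3 mutant maxilla arrays. Leaving out 1 array gave 0 to 2 for the distal jaws, 3 to 5 for the proximal jaws, 0 to 2 for the ends of the maxilla and 0 to 0 for those of the mandible.

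For the 85 listed lipid genes in the distal maxilla, proximal maxilla, distal mandible and proximal mandible (1, 22, 1 and 3 in the report), array weights gave 8, 48, 8 and 13 calls. Removing the 3 mutant maxilla arrays gave 0, 2, 3 and 6. With covariates 1 was called in the proximal maxilla, 4 in the distal and 13 in the proximal mandible. With only the 6 arrays compared 0 and 7 were called in the distal and proximal maxilla, and with the mean of all probe sets 5 in the proximal mandible. Leaving out 1 array gave 0 to 1, 10 to 28, 0 to 1 and 1 to 2. The cause of these changes was not tested, apart from the fewer arrays in some fits.

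The replicate block, with the replicate number as a term, gave 2, 32, 2 and 8 lipid genes in the same order of regions, and 3, 5, 2 and 0 of the 8 genes between distal jaws, proximal jaws, ends of the maxilla and ends of the mandible. The numbers were not taken as a pairing. Deviations of same-numbered arrays correlated above 0.1 in 17 of 18 pairs of control regions, 12 of 18 pairs of mutant regions and 9 of 12 pairs of genotypes. As a hint from the data, 22 of 24 arrays correlated best, on average, with arrays of their own number in the other regions of their genotype.

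Tested values of single genes that changed sign were as follows. With covariates Lpl was at -0.60 between distal jaws, -0.06 between proximal jaws (called in the report) and -0.01 between the ends of the maxilla. Fabp5 was then at -0.31 and -0.30 between distal and proximal jaws, Pparg at -0.24 and Cd36 at -0.55 between proximal jaws, and Fabp4 at 0.13 between the ends of the maxilla. Of the lipid genes in the proximal maxilla, Rxrg was then at -0.03, Gata2 at 0.20, Cebpg at 0.00 and Pnpla2 at 0.05. With array weights Cd36 and Fabp4 were at 0.09 and 0.15 between the ends of the maxilla and Cebpb at -0.13 between those of the mandible, and with the mean of all probe sets Cd36 was at 0.00 between distal jaws. Leaving out 1 array in turn moved Fabp5 between -0.03 and 0.12 for distal jaws and Cd36 between -0.16 and 0.38 for proximal jaws. Between the ends of the maxilla it moved Fabp4 from -0.73 to 0.24, Cd36 from -0.27 to 0.21 and Lpl from -0.01 to 0.17, and between those of the mandible Cebpb from -0.25 to 0.25. Of the recomputed tested values of single genes 691 kept direction and side of the threshold, 107 lost a call, 17 gained one and 27 changed sign. Of 536 recomputed mutant differences of the 8 genes, which have no test, 21 moved by more than the spread between arrays and 24 changed sign, none of them from a reported difference above 0.19 in size. Those in the maxilla are Cebpb at both ends, Cd36 at the proximal end and Fabp5 at the distal end (-0.01 without the 3 arrays and -0.11 with covariates) and, without 1 array, Cebpa at the distal end, and those in the mandible are Cebpa and Ebf2 at the distal end. Depth on arrays is signal over background, which limits Pparg in controls and Fabp4 in mutant mandibles.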
